A study of Sus scrofa with 4 samples.

Results

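The cells described here are stromal cells of the pig endometrium, the lining of the uterus, taken on day 12 of pregnancy and holding at least 1 UMI (a counted RNA molecule) of IDO1. They were chosen by a fixed gate. A barcode had to hold 1000 UMIs, 500 genes and at most 20% mitochondrial UMIs. It counted as stroma where DCN, LUM, COL1A1, COL1A2 and COL3A1 summed to 20000 CPM or more (counts per 1000000 UMIs, here of the cell) and keratin and junction genes (KRT7, KRT8, KRT18, EPCAM and CLDN4) to under 4000 CPM. Of 8962 kept cells of the day 12 endometrium, 6154 met the stromal gate, and 748 of these held IDO1. They made up 748 of the 30711 kept cells of the whole series and are called IDO1 positive stroma below. The remaining 5406 stromal cells of the same library, with no UMI of IDO1, are called IDO1 0 stroma, and 5429 stromal cells of the day 9 endometrium, chosen by the same gate whatever their IDO1, serve as the earlier day.

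Single-cell RNA of pig conceptuses and endometrium was sequenced with a 3' droplet kit, in 4 libraries, on 9 and 12 days of pregnancy. The endometrial groups used here were pregnant endometrium on day 9 and on day 12, dissociated with collagenases and dispase. No breed, age or treatment was used here, and the sources used here do not give the number of animals behind a library. Each group was 1 library, so nothing compared here has replicates, no test was run, and day cannot be told apart from library.

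IDO1 is the indoleamine dioxygenase that opens the kynurenine route of tryptophan breakdown. Interferon gamma is its best known inducer, acting through the receptor chains IFNGR1 and IFNGR2 and the kinases JAK1 and JAK2 to switch on guanylate-binding proteins such as GBP1, the chemokine CXCL10 and the antigen presentation genes. In the pregnant uterus, tryptophan breakdown by IDO1 is known as a brake on T cells, and the pig conceptus itself secretes interferon gamma at attachment.

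The levels of the label's markers, IDO1, GBP1 and DCN, are given here and are no check of the label. DCN, LUM and the 3 collagens were used by the gate, and IDO1 by the membership, so their levels are descriptions. DCN, a matrix proteoglycan, was at 15610 CPM in IDO1 positive and 15842 CPM in IDO1 0 stroma, where the CPM of a group is taken from the UMIs summed over all its cells. GBP1 was not used by the rule but is a marker of the label, so its level is a description too. It was at 1653 CPM in IDO1 positive and 550 CPM in IDO1 0 stroma, and 89.2% and 48.4% of their cells held it. Over 14 stromal markers the median log2 ratio of IDO1 positive to IDO1 0 stroma was −0.07, beside −0.14 over all 9068 genes with a symbol at 5 CPM or more in either group. This log2 ratio adds 1 CPM to both levels. Since the median of all genes lay below 0, a gene of equal level relative to the others sits slightly under a ratio of 1, and among 2481 abundant genes (50 CPM or more in both groups) the median was −0.07.

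IDO1 was seen in 12.2% of day 12 stromal cells (748 of 6154, exact binomial 95% interval 11.3 to 13.0) and in 0.147% of day 9 stromal cells (8 of 5429, 0.0636 to 0.290). Intervals here and below cover counting error only, since cells of 1 library are not replicates. The day 9 cells were the deeper ones, at a median of 2735 UMIs against 2228. With every cell thinned to 1000 UMIs, the shares were 6.68% (411 cells, 6.07 to 7.33) and 0.0553% (3 cells, 0.0114 to 0.161). The level of IDO1 was 109 CPM (104 to 115, exact Poisson) in day 12 stroma and 0.551 CPM (0.252 to 1.05) in day 9 stroma.

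Most IDO1 positive cells held few UMIs of it. Of the 748 cells, 384 held 1 UMI, 155 held 2, 83 held 3 and 49 held 4, and the highest cell held 16. The 75 cells with most IDO1 carried 31.2% of its 1669 UMIs in stroma. Within the IDO1 positive cells as a group the level was 687 CPM.

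Detection depended on depth. IDO1 positive cells had a median of 3024 UMIs and 1271 genes, and IDO1 0 cells 2160 UMIs and 1067 genes, with mitochondrial shares of 1.73% and 1.76%. The share of day 12 stromal cells with IDO1 was 5.44% among cells of 1000 to under 1500 UMIs and 6.40% from there to under 2000. It was 10.3% from 2000 to under 3000, 22.7% to under 5000, 35.5% to under 8000 and 40.0% in the 20 cells of 8000 UMIs or more. The level in CPM also differed between these bands, from 56.9 to 78.0 CPM in the 3 lower bands and 156 to 199 CPM in the 3 upper ones, so the deeper cells held more IDO1 relative to their own total. On day 9 the share lay between 0% and 0.583% in every band. IDO1 positive and IDO1 0 stroma thus differ in depth as well as in IDO1, and values at matched depth are given for some results only. With IDO1 0 cells weighted to the depth of the IDO1 positive ones, ratios of 34 of 129 named genes left their counting intervals. GBP1 went from 3.01-fold to 2.74-fold higher in IDO1 positive stroma, CXCL10 from 2.55-fold to 2.24-fold and WARS1 from 3.57-fold to 3.30-fold.

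**Figure D1:**
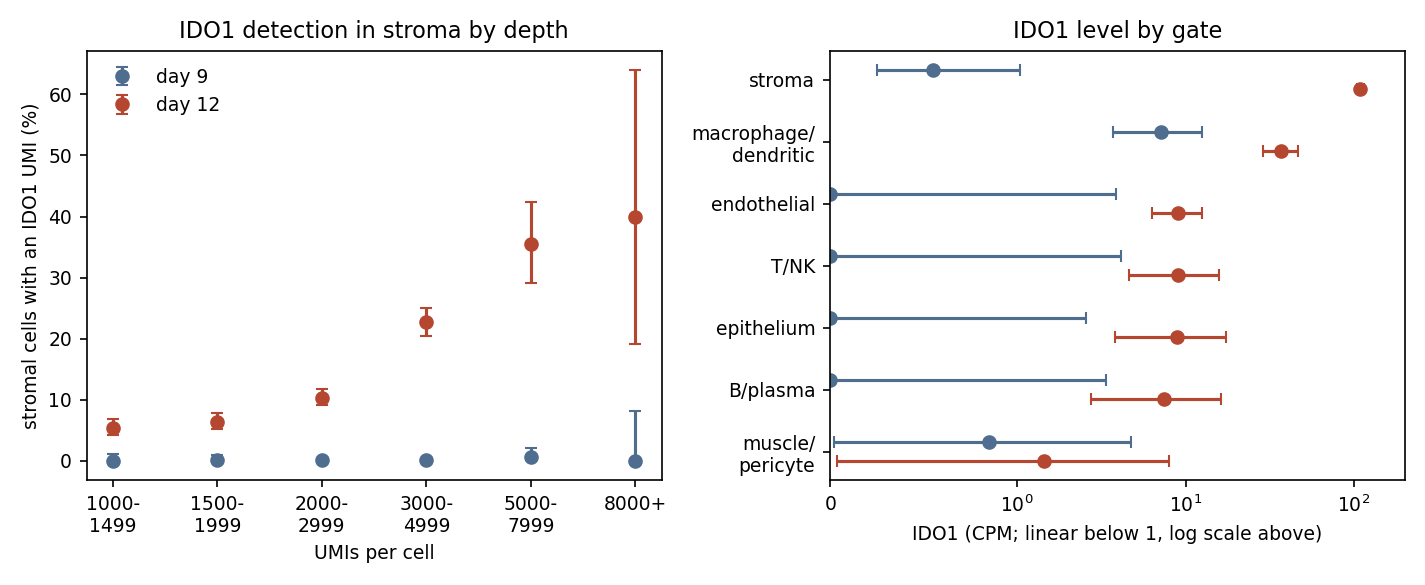
Left, the percent of stromal cells with an IDO1 UMI in 6 bands of UMIs per cell, for the day 9 and day 12 endometrium (1 library each, bars are exact binomial 95% intervals). Right, the level of IDO1 in CPM in 7 gates of cell types on both days, on an axis linear below 1 and logarithmic above (bars are exact Poisson 95% intervals). On day 12 the share ran from 5.44% to 40.0% across the bands, and stroma had the highest level of the 7 gates, at 109 CPM.

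IDO1 in the day 12 endometrium was mostly stromal RNA. Stroma held 91.8% of all IDO1 UMIs of the library. The next level was in cells gated by macrophage and dendritic markers, at 36.9 CPM (28.9 to 46.5), where 56 of 576 cells held IDO1 (9.72%, median 2807 UMIs). Endothelial cells were at 9.04 CPM, T and NK cells at 8.98 CPM, epithelium at 8.88 CPM, B and plasma cells at 7.49 CPM and muscle and pericyte cells at 1.44 CPM, and the intervals of these 5 overlapped. At 1000 UMIs per cell, 6.68% of stromal and 3.13% (1.86 to 4.89) of macrophage and dendritic cells held IDO1, beside 3.45% of B and plasma cells (3 of 87, 0.717 to 9.75), 0.952% of epithelium, 0.647% of T and NK cells, 0.574% of endothelial and 0.346% of muscle and pericyte cells. Median raw depths of these 5 types ran from 1303 UMIs in T and NK cells to 9464 in B and plasma cells. Free RNA was not measured, and its part in the IDO1 of these types was not tested. On day 9 the order was another. Macrophage and dendritic cells held 12 IDO1 UMIs, 54.5% of those of that library, and were at 7.16 CPM (3.70 to 12.5), above stroma at 0.551 CPM.

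IFNG itself was nearly absent from the endometrial libraries. It was at 0.458 CPM (7 UMIs) in day 12 stroma and at 8.98 CPM (12 UMIs) in day 12 T and NK cells. In the embryo library of the same day IFNG was at 322 CPM (21110 UMIs), while IDO1 was at 0.107 CPM there (7 UMIs).

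The rest of the kynurenine route was thinly measured. Of 12 genes of tryptophan degradation, TDO2, AADAT, ACMSD and QPRT had no UMI in IDO1 positive or in IDO1 0 stroma. KYNU, which cleaves kynurenine, was at 8.23 CPM (20 UMIs) in IDO1 positive and 4.05 CPM (52 UMIs) in IDO1 0 stroma (2.03-fold, 1.15 to 3.46), and 1.56-fold higher once IDO1 0 cells were weighted to the depth of the IDO1 positive ones. KYAT3, a kynurenine aminotransferase, was at 55.1 and 48.3 CPM (1.14-fold, 0.941 to 1.38), and it was the most abundant of the 11 genes other than IDO1 in IDO1 positive stroma by CPM. KMO, the kynurenine monooxygenase, was at 4.53 and 2.88 CPM, with an interval of the ratio from 0.723 to 3.15. IDO2, the paralog of IDO1, held 5 UMIs in IDO1 positive and 13 in IDO1 0 stroma. A difference of KMO, IDO2 or KYAT3 was not detectable at this depth.

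Genes that use or carry tryptophan or sense kynurenine were mixed. Of 13 listed, 10 reached 5 CPM, and 4 of them were higher in IDO1 positive stroma and 6 lower, beside 30.6% of all genes higher. The median log2 ratio was −0.01, beside −0.14 over all genes, and 1 gene was past 2-fold, beside 0.529% of all genes. The gene past 2-fold was WARS1, the tryptophan tRNA ligase and a classical interferon gamma target, at 472 CPM in IDO1 positive and 132 CPM in IDO1 0 stroma (3.57-fold, 3.31 to 3.85), and at 25.4 CPM on day 9. CYP1B1, a target of the aryl hydrocarbon receptor that binds kynurenine, was at 2125 and 1588 CPM (1.34-fold, 1.30 to 1.38), while TIPARP, another target, was at 244 and 276 CPM. The tryptophan carrier subunit gene SLC7A8 was 1.41-fold lower (1.25 to 1.59), at 133 against 188 CPM. Of 9 amino acid starvation genes at 5 CPM or more, 8 were lower and 1, TRIB3 (16.9 against 10.1 CPM, named after its values were seen), was higher, beside 69.4% of all genes lower, and the median was −0.12 beside −0.14. ATF4, the factor of that response, was at 510 and 556 CPM.

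Across the genome few genes differed by 2-fold. Among 5471 genes at 20 CPM or more in either group, 33 (0.603%) were 2-fold or more higher in IDO1 positive stroma, with IDO1 itself left out, and 47 (0.859%) were 2-fold or more lower. These counts depend on depth and membership. They were 25 and 34 with IDO1 0 cells weighted to the depth of the others, and 73 and 213 where each cell was thinned to 1000 UMIs, which leaves fewer UMIs behind each gene. With membership at 2 or more UMIs (364 cells) they were 59 and 121. The causes of these changes were not tested.

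Genes known to be induced by interferon gamma were mostly higher. Of 35 genes matched in the files, 33 reached 5 CPM, and 30 of these were higher in IDO1 positive stroma and 3 lower, while 30.6% of all 9068 genes were higher. There were 14 past 2-fold, beside 0.529% of all genes, and none was 2-fold or more lower, beside 1.93%. The median log2 ratio was 0.95, and the summed level was 11011 CPM against 5725 CPM (1.92-fold, 1.90 to 1.95). Every one of these values is from the contrast that IDO1 membership itself set, in which IDO1 is an interferon gamma target, so they describe the cells and test nothing.

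GBP1, a guanylate-binding protein that acts against intracellular microbes, was at 1653 CPM in IDO1 positive and 550 CPM in IDO1 0 stroma (3.01-fold, 2.89 to 3.13). At 1000 UMIs per cell it was seen in 71.5% of IDO1 positive cells (68.1 to 74.7) and 32.1% of IDO1 0 cells (30.9 to 33.4). GBP2, its relative, was at 172 and 59.7 CPM (2.87-fold, 2.55 to 3.24). CIITA, the master activator of class II antigen presentation, was lower in level but as different, at 69.9 and 20.2 CPM (3.47-fold, 2.84 to 4.23). SAMHD1, a nucleotide hydrolase that limits viruses, was at 77.8 and 24.7 CPM (3.15-fold, 2.62 to 3.79).

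**Figure D2:**
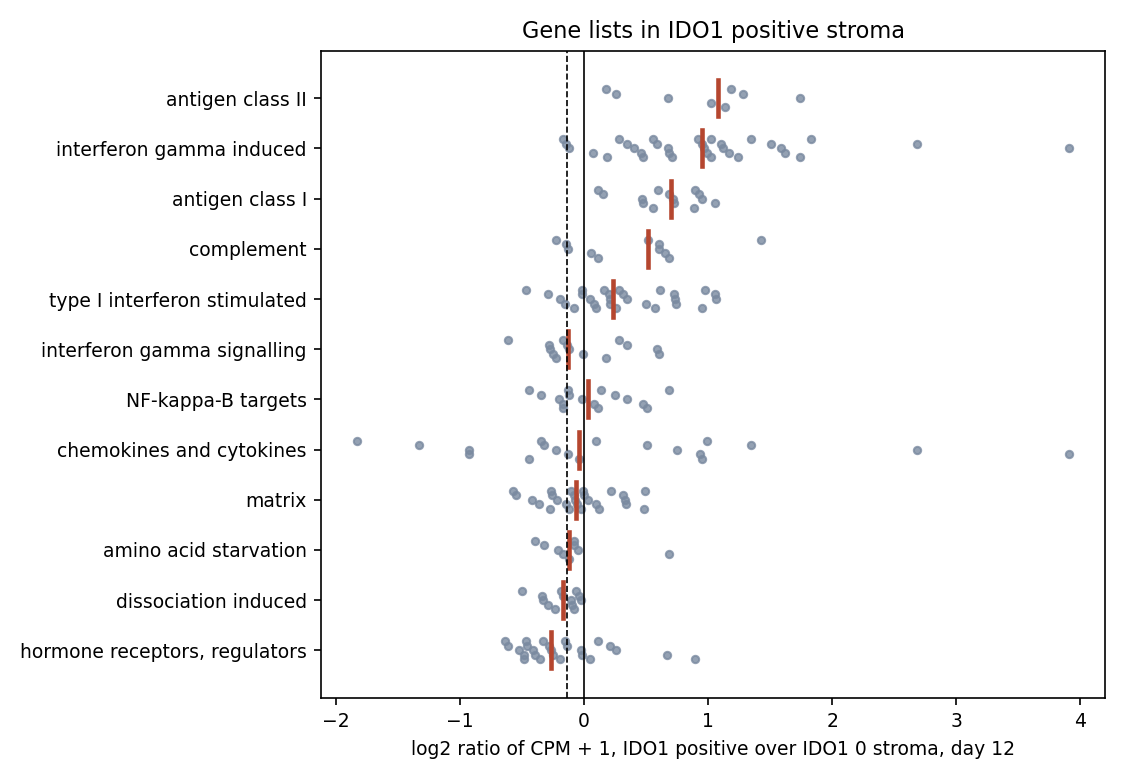
Each point is a gene of a functional list at 5 CPM or more in either group, placed by its log2 ratio (1 CPM added) of IDO1 positive to IDO1 0 stroma of day 12. Red bars are list medians and the dashed line is the median of all genes, −0.14. The lists of class II (1.08), interferon gamma induced (0.95) and class I genes (0.70) have the highest medians, and hormone receptors and regulators the lowest (−0.27).

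CXCL9, CXCL10 and CXCL11, ligands of the receptor CXCR3 that draw T and NK cells, were all past 2-fold, but of these CXCL10 alone rested on many cells. CXCL10 was at 3457 CPM in IDO1 positive and 1357 CPM in IDO1 0 stroma (2.55-fold, 2.48 to 2.62), and 583 of the 748 cells held it. CXCL11 was at 30.4 against 1.09 CPM, but 4 cells held its 74 UMIs and 1 of them held 65. CXCL9, named after its values were seen, was at 18.9 against 2.10 CPM, with 31 of 46 UMIs in 1 cell. Without the 5 highest cells of each gene, a choice made after seeing the data, CXCL10 stayed at a log2 ratio of 1.27, CXCL11 went to −1.06 and CXCL9 to −0.22. The whole list of chemokines and cytokines was mixed, with 9 of 19 genes higher, beside 30.6% of all genes, 10 lower and a median of −0.04. CXCL12 and CXCL14, chemokines known from stromal cells, were 2.66-fold lower (1.79 to 4.13), at 10.7 against 28.5 CPM, and 3.87-fold lower (2.47 to 6.40), at 8.23 against 31.8 CPM. Without cells of 2 or more other marker UMIs the log2 ratio of CXCL12 went from −1.33 to −0.77, under 2-fold, and that of CXCL11 to 0.093. With cells thinned that of CXCL14 went from −1.83 to −1.02. CCL26, an eotaxin outside that list, was at 561 CPM in IDO1 positive and 214 CPM in IDO1 0 stroma (2.62-fold, 2.46 to 2.80), and at 708 CPM on day 9.

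Antigen presentation genes were higher in IDO1 positive stroma throughout both lists. The lists of induced, class I and class II genes share members, such as CIITA, so their counts are not independent of each other. All 14 class I genes measured were higher, beside 30.6% of all genes. Of the 14, 1 was past 2-fold, beside 0.529% of all genes. The median was 0.70 and the summed level 24042 against 15841 CPM. B2M, the light chain of class I molecules, was at 20450 and 13545 CPM (1.51-fold, 1.49 to 1.52). PSMB9, a subunit of the immunoproteasome that cuts peptides for class I, was at 465 and 223 CPM (2.09-fold, 1.95 to 2.24), and at 1.97-fold with depth weighted. The peptide transporter genes TAP1 and TAP2 were 1.86-fold (1.70 to 2.04) and 1.95-fold (1.75 to 2.17) higher.

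All 8 class II genes were higher as well, beside 30.6% of all genes. Of the 8, 5 were past 2-fold, beside 0.529% of all genes, and the median was 1.08. The summed level of the list was 1.43-fold higher, and 1.20-fold with IDO1 0 cells weighted to the depth of the others. The peptide loading genes SLA-DMA and SLA-DMB were at 272 against 111 CPM (2.45-fold, 2.23 to 2.68) and 301 against 137 CPM (2.204-fold, 2.02 to 2.40). SLA-DQB1, a class II chain, was at 1139 and 500 CPM (2.28-fold, 2.18 to 2.38). With IDO1 0 cells weighted to the depth of the others these 3 ratios were 2.02, 1.73 and 1.69. IFI30, a lysosomal reductase named after its values were seen, was at 430 and 211 CPM (2.04-fold, 1.90 to 2.19). CD74, the invariant chain, also named after its values were seen, was the most abundant of the list by CPM, at 4204 and 3519 CPM (1.19-fold, 1.17 to 1.22). SLA, GBP and SERPINA3 genes belong to families of related genes. How the authors' counting split reads among related genes is not given in the sources, so their levels are uncertain.

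The receptor and signalling genes stood apart from their targets. Of 14 genes of interferon gamma signalling, 5 were higher and 9 lower, beside 30.6% of all genes higher. None was past 2-fold, and the median was −0.13, close to that of all genes. IFNGR1 was at 24.3 and 24.4 CPM (0.993-fold, 0.739 to 1.32) and IFNGR2 at 56.8 and 49.97 CPM (1.14-fold, 0.938 to 1.37). JAK1 was 1.19-fold lower (1.09 to 1.31), at 217 against 259 CPM, and JAK2 was at 92.6 and 102 CPM. STAT3, a transcription factor of cytokine signalling, was at 108 and 70.7 CPM (1.53-fold, 1.32 to 1.75). IRF1, the early transcription factor of the response, was not higher in IDO1 positive stroma, at 741 and 805 CPM (0.919-fold, 0.874 to 0.967). SOCS1, the feedback inhibitor, was at 340 and 279 CPM (1.22-fold, 1.13 to 1.32).

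Genes stimulated mainly by type I interferons differed less. Of 28 measured, 21 were higher and 7 lower, beside 30.6% of all genes higher. There were 2 past 2-fold, beside 0.529% of all genes, and the median was 0.23. Their summed level was 9555 against 9534 CPM (1.002-fold, 0.988 to 1.02). BST2, the tetherin that holds virus particles, was at 244 and 116 CPM (2.10-fold, 1.91 to 2.31). DDX60 was at 29.2 and 13.5 CPM (2.16-fold, 1.61 to 2.86). Both were under 2-fold on the log2 scale at 1000 UMIs per cell and without their 5 highest cells. OAS2, a sensor of double-stranded RNA, was at 214 and 128 CPM (1.68-fold, 1.52 to 1.85). Abundant genes of the list did not follow. IFI6 was at 4525 and 4784 CPM and ISG15 at 1656 and 1899 CPM (both named after their values were seen), so the median lay above 0 while the sums were level.

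Among genes that restrain immune cells, 10 of 14 were higher and 4 lower (median 0.09), beside 30.6% of all genes higher. CD274, which encodes PD-L1, the ligand of PD-1, was at 108 and 49.5 CPM (2.18-fold, 1.88 to 2.52). It was the gene of the list past 2-fold, beside 0.529% of all genes. PDCD1LG2, the second ligand, was at 60.1 and 30.3 CPM (1.98-fold, 1.63 to 2.41). LGALS1, galectin, went the other way, 1.46-fold lower (1.42 to 1.504), at 2098 against 3065 CPM, and its abundance put the summed level of the list at 3257 against 4080 CPM. Complement genes were higher in 8 of 11 cases (median 0.52), beside the same 30.6%. C2, of the classical route, was at 105 and 38.3 CPM (2.74-fold, 2.35 to 3.19), C3 at 1882 and 1238 CPM (1.52-fold, 1.47 to 1.57) and C4A at 3299 and 2046 CPM (1.61-fold, 1.57 to 1.65). Targets of NF-kappa-B were 8 higher and 8 lower (median 0.03), so a larger share was higher than over all genes. VCAM1, an adhesion molecule for leukocytes, was at 402 and 249 CPM (1.61-fold, 1.498 to 1.73).

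**Figure D3:**
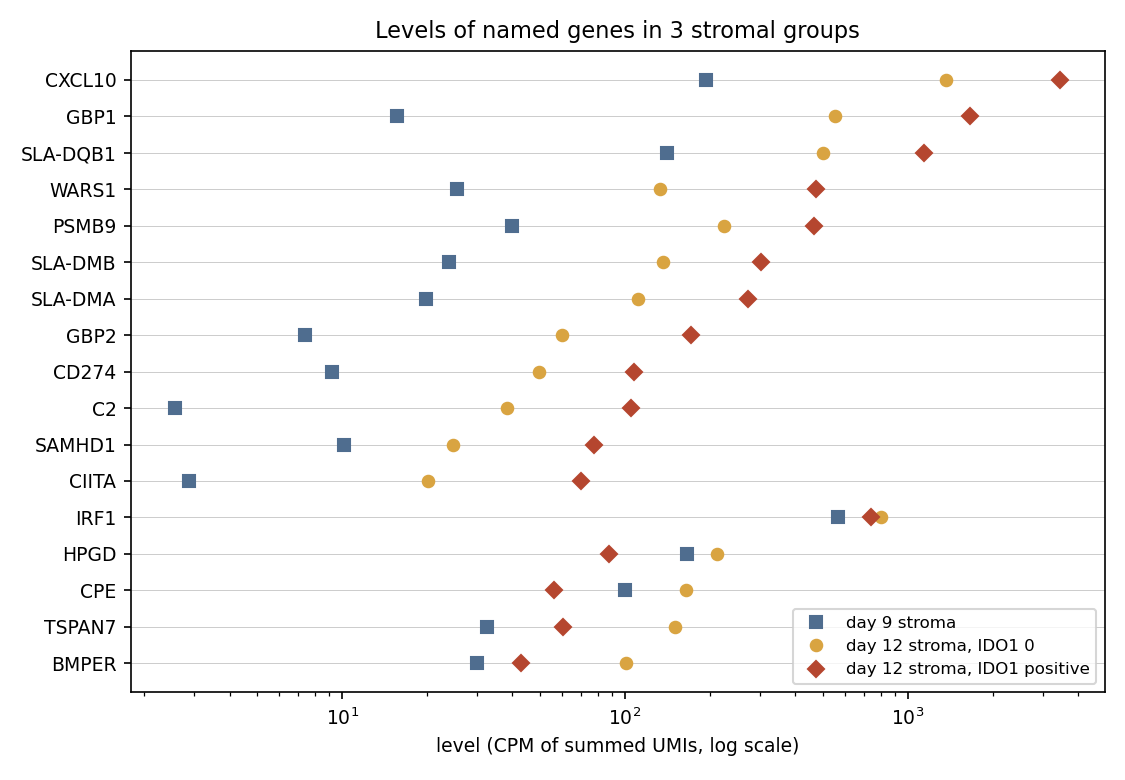
Levels in CPM (logarithmic axis) of 17 named genes in day 9 stroma (squares), IDO1 0 stroma of day 12 (circles) and IDO1 positive stroma of day 12 (diamonds), 1 library a day. From CXCL10 down to CIITA the levels stand in that order, lowest on day 9. IRF1 differs little, and HPGD, CPE, TSPAN7 and BMPER are highest in IDO1 0 stroma.

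Other genes near the top of the ranking belong to no interferon list used here. ACKR2, a decoy receptor that takes up inflammatory chemokines, was at 56.4 and 14.4 CPM (3.91-fold, 3.12 to 4.91), and at 0.245 CPM (4 UMIs) on day 9. SNX10, a sorting nexin of endosomes, was at 83.1 and 23.2 CPM (3.58-fold, 2.98 to 4.298). HPS5, of the machinery that builds lysosome-related organelles, was at 482 and 159 CPM, but 1 cell held 379 of its 1171 UMIs and 5 cells 61.6% of them. Without those 5 cells its ratio was 1.18.

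The genes lowest in ratio in IDO1 positive stroma had mixed known roles. CPE, a carboxypeptidase that trims peptide hormones, was 2.92-fold lower (2.46 to 3.504), at 56.0 against 164 CPM. HPGD, which inactivates prostaglandins, was 2.41-fold lower (2.09 to 2.78), at 87.6 against 211 CPM. TSPAN7, a tetraspanin, was 2.48-fold lower (2.10 to 2.96) and BMPER, a regulator of bone morphogenetic proteins, 2.35-fold lower (1.92 to 2.89). ID1, a target of those proteins, was at 273 and 593 CPM, 2.17-fold lower (2.01 to 2.35), and its ratio was 0.515 with depth weighted. RGS5, the regulator of G-protein signalling that marks pericytes, was lowest in ratio, at 22.6 against 102 CPM (4.50-fold lower, 3.44 to 6.01). A2M, a protease inhibitor, was 3.25-fold lower (2.58 to 4.14). At a stromal sum of 40000 CPM or more the log2 ratio of A2M went from −1.67 to −0.63, under 2-fold, and that of RGS5 from −2.12 to −1.36. With cells thinned, that of BMPER went from −1.21 to −0.66, under 2-fold. All 9 muscle and pericyte markers measured were lower too, beside 69.4% of all genes, at a summed 276 against 478 CPM. The part of these markers in the ratios above was not tested.

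Of 25 hormone receptors and stromal regulators 19 were lower and 6 higher, near the share of all genes lower, 69.4%. The median was −0.27, beside −0.14 over all genes, which lay between the medians of the genes' interval ends (−0.51 and 0.03). The summed ratio was 0.917, and 0.964 with depth weighted. None of the 25 was past 2-fold. IGF1, a growth factor of stroma, was 1.53-fold lower (1.45 to 1.61), at 667 against 1020 CPM. WNT5A was 1.44-fold lower (1.26 to 1.66), at 95.9 against 138 CPM. IGFBP2, which binds insulin-like growth factors, stood out in the other direction, at 926 and 497 CPM (1.86-fold, 1.77 to 1.95). Matrix genes were near the background, 9 higher and 17 lower of 26 (median −0.07), with FN1, fibronectin, at 968 and 691 CPM (1.40-fold, 1.34 to 1.47) and BGN, biglycan, 1.498-fold lower (1.27 to 1.77). All 13 genes known to respond to tissue dissociation were lower, beside 69.4% of all genes, though none past 2-fold, with FOS at 6490 and 7958 CPM. Their median, −0.17, lay near that of all genes, and the direction of those closest to 0 depends on the scaling. Of 17 cell cycle genes 4 reached 5 CPM, and 3 of those were higher.

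Other genes of day 12 stroma overlapped with IDO1 to different extents. At 1000 UMIs per cell, IGFBP2 was in 42.6% of cells with IDO1 and 27.8% of cells without, GBP1 in 74.7% and 34.2%, SERPINA3-2 in 11.2% and 11.6%, and MGP, the matrix Gla protein, in 11.9% and 16.1%. Read the other way, IDO1 was in 9.89% of IGFBP2 cells, 6.46% of SERPINA3-2 cells and 5.04% of MGP cells, beside 6.68% of all day 12 stroma. As levels, SERPINA3-2, a serpin, was at 125 CPM in IDO1 positive and 148 CPM in IDO1 0 stroma, and MGP at 312 and 402 CPM.

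Within the IDO1 positive cells, some response genes followed the number of IDO1 UMIs and others did not. With 0, 1, 2 and 3 or more IDO1 UMIs per cell, GBP1 was at 550, 1313, 1544 and 2200 CPM. WARS1 was at 132, 369, 453 and 630 CPM over the same classes, and CXCL10 at 1357, 3000, 3343 and 4171 CPM. CPE went the opposite way, at 164, 79.1, 37.6 and 35.0 CPM, where the last 2 intervals overlapped (22.6 to 58.7 and 23.2 to 50.6). IRF1 showed no such order, at 805, 768, 703 and 726 CPM. Nor did PDCD1LG2, at 30.3, 69.3, 47.5 and 55.0 CPM, or C3, at 1238, 1950, 1698 and 1901 CPM. The summed interferon gamma induced list was at 5725, 9695, 10606 and 13116 CPM, and the type I list at 9534, 9481, 9734 and 9546 CPM.

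The 4 classes differed in depth, with medians of 2160, 2591, 3023 and 3539 UMIs. Among cells of 2000 to under 3000 UMIs alone, GBP1 was at 516 CPM (1929 cells), 1348 CPM (134 cells), 1524 CPM (44 cells) and 2672 CPM (44 cells). Among cells of 3000 to under 5000 UMIs it was at 620, 1246, 1490 and 2115 CPM. In cells of 5000 to under 8000 UMIs the classes of 1 and 2 UMIs did not differ, at 1522 and 1531 CPM (24 and 17 cells). The summed interferon gamma induced list was level between the classes of 1 and 2 UMIs at matched depth in the bands of 3000 to under 5000 (10189 and 9997 CPM) and 5000 to under 8000 UMIs (10329 and 10333 CPM).

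**Figure D4:**
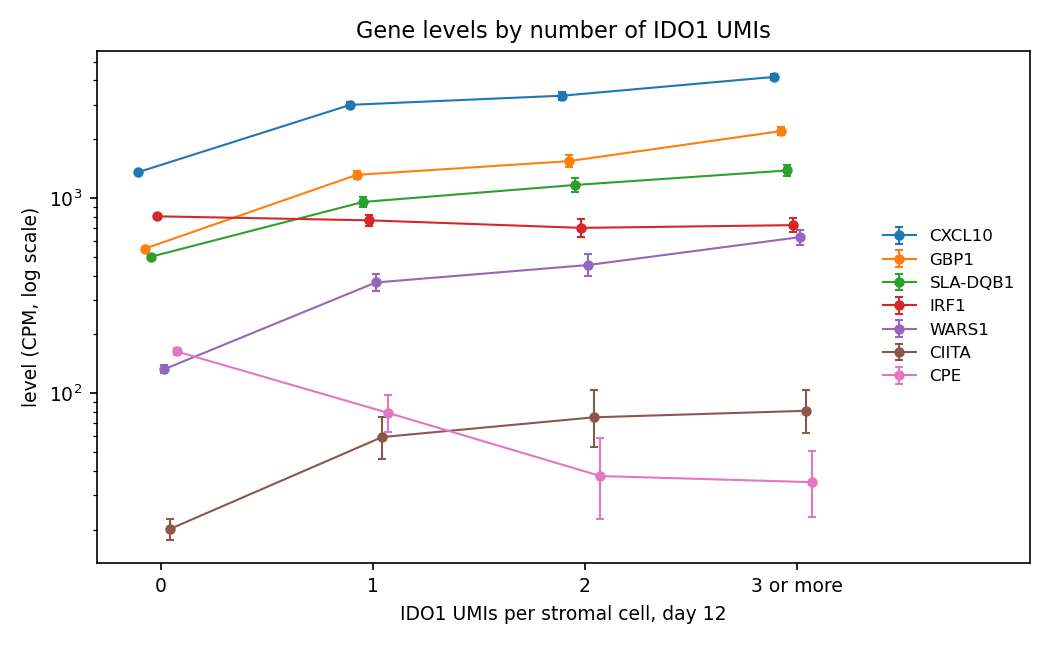
Levels in CPM (logarithmic axis) of 7 genes in day 12 stromal cells with 0, 1, 2 and 3 or more UMIs of IDO1 (5406, 384, 155 and 209 cells, bars are exact Poisson 95% intervals, points shifted sideways for clarity). GBP1, WARS1, CXCL10 and SLA-DQB1 were higher in each further class, CPE was lower, and IRF1 lay between 703 and 805 CPM throughout.

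RNA of the interferon gamma induced list, summed over its genes, was found in more cells than IDO1, which is a single gene. Single genes of the list differed in this. Before thinning, WARS1 was in 67.6% of IDO1 positive and 20.9% of IDO1 0 cells, and CIITA in 17.6% and 4.35%. IDO1 positive cells held a median of 27 UMIs of the list, which leaves IDO1 out, and IDO1 0 cells 10. At 1000 UMIs per cell the medians were 9 and 4, and 0.535% of IDO1 positive and 3.48% of IDO1 0 cells held none. Classed by those thinned UMIs, IDO1 was seen in 1.04% of day 12 stromal cells with 0 list UMIs, in 1.26%, 1.30% and 1.26% of cells with 1, 2 and 3, in 3.42% (2.51 to 4.53) of cells with 4 or 5, and in 12.7% (11.5 to 14.1) of cells with 6 or more. The class of 6 or more held 43.1% of day 12 stroma and 338 of the 411 cells with IDO1 (82.2%). With 2653 cells in all, most of that class had no IDO1 UMI at this depth. On day 9 the class of 6 or more held 243 cells (4.48% of stroma), and IDO1 was in 1 of them (0.412%, 0.0104 to 2.27). The day 9 interval lay wholly below the day 12 one in that class, which covers counting error in 2 libraries and not the spread between animals. The mean number of list UMIs within the class of 6 or more was not matched between days.

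**Figure D5:**
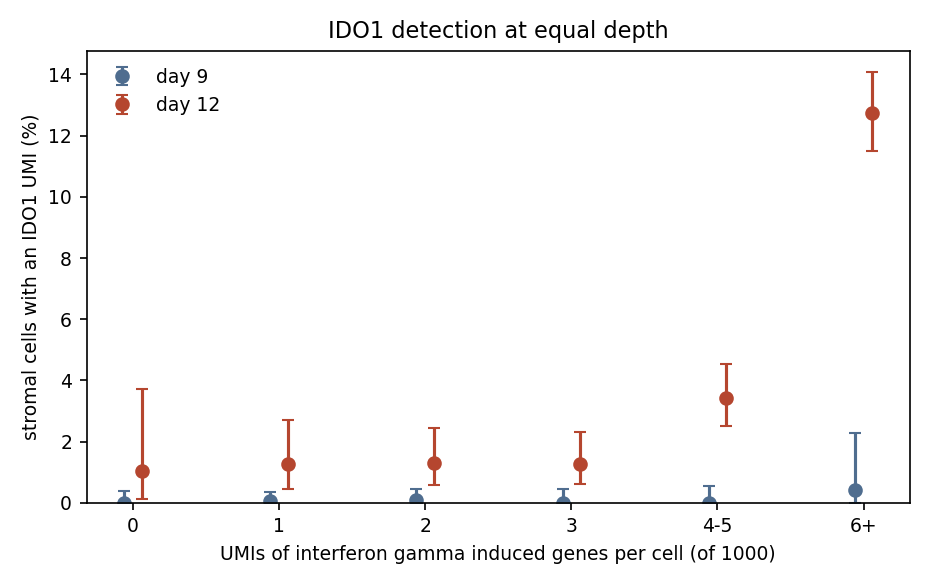
The percent of stromal cells with an IDO1 UMI, by the number of UMIs of interferon gamma induced genes (IDO1 left out) per cell, every cell thinned to 1000 UMIs, on day 9 and day 12 (1 library each, bars are exact binomial 95% intervals). On day 12 the share stayed between 1.04% and 1.30% up to 3 list UMIs and was 12.7% at 6 or more, and on day 9 it was at most 0.412%.

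Against day 9 stroma, both kinds of day 12 stroma were higher in the same lists, and both comparisons share the day 9 cells, so they are given side by side. For interferon gamma induced genes, 33 of 33 were higher in IDO1 positive stroma than on day 9, 28 past 2-fold, with a median log2 ratio of 2.13, where 35.3% of 9456 genes were higher and 6.06% were 2-fold or more higher. In IDO1 0 stroma 30 of 30 were higher, 22 past 2-fold, with a median of 1.44, where 45.0% and 5.85% of 9502 genes were. The summed list was at 2052 CPM on day 9, 5725 CPM in IDO1 0 and 11011 CPM in IDO1 positive stroma. GBP1 was at 15.6, 550 and 1653 CPM in that order. Class II genes had medians of 2.87 (IDO1 positive) and 1.76 (IDO1 0) over day 9, class I genes 2.03 and 1.37, and complement genes 1.85 and 1.23. Chemokines and cytokines had medians of 1.21 and 1.22.

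The sum of the type I list went the other way between days. Its summed level was 17355 CPM on day 9, above 9555 CPM in IDO1 positive and 9534 CPM in IDO1 0 stroma. IFI6 alone made up 12261 CPM of the day 9 sum, against 4525 CPM of that of IDO1 positive stroma, so the difference between these sums rests largely on IFI6. The list's medians over day 9 were 0.34 in IDO1 positive and 0.03 in IDO1 0 stroma. The medians of the genes' interval ends were −0.05 and 0.62, and −0.13 and 0.24, so neither list median had a clear direction.

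By the rule for named genes, the 5 highest ratios of IDO1 positive over day 9 stroma, apart from IDO1, were SERPINA3-2, ACKR2, GBP1, C2 and KIF9. SERPINA3-2 was at 1.96 CPM on day 9 and KIF9, a kinesin, at 33.4, 509 and 972 CPM in day 9, IDO1 0 and IDO1 positive stroma. The 5 lowest were DEFB1, PENK, CCL28, ST6GAL2 and OPCML. PENK, which encodes enkephalins, was at 257 CPM on day 9, 2.41 CPM in IDO1 0 and 3.70 CPM in IDO1 positive stroma, and CCL28, an epithelial chemokine, at 51.2, 0.623 and 0.411 CPM. Both genes were near 0 in either kind of day 12 stroma.

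Markers of other cell types were measured in IDO1 positive stroma and moved unevenly. Endothelial markers were higher in 10 of 12 cases, beside 30.6% of all genes, with a summed level of 221 against 169 CPM (1.31-fold, 1.19 to 1.44). With IDO1 0 cells weighted to the depth of the others this ratio was 0.956, so its direction turned. In the unweighted comparison 2 were past 2-fold, CDH5 and CLDN5 (both named after their values were seen), beside 0.529% of all genes. Of the 32 CLDN5 UMIs 21 were in 1 cell, and of the 85 PECAM1 UMIs 23. The part of endothelial RNA in the ratios above was not tested. T and NK markers summed to 890 and 943 CPM, and B and plasma markers to 417 and 427 CPM. Macrophage and dendritic markers summed to 455 and 442 CPM (1.03-fold), a ratio of 0.646 with depth weighted. Epithelial markers summed to 99.6 and 116 CPM, and those of the conceptus to 14.8 and 23.1 CPM. RNA of other types was nonetheless present in IDO1 positive stroma. JCHAIN, the joining chain of plasma cells, was at 315 CPM with a UMI in 62.3% of IDO1 positive and 53.8% of IDO1 0 cells. C1QB of macrophages was at 134 CPM, TYROBP at 70.4, CD79B of B cells at 55.5 and CD3E of T cells at 18.1 CPM. No UMI was found for 1 of 14 T and NK, 3 of 15 macrophage and dendritic, 4 of 8 B and plasma, 6 of 10 conceptus and 4 of 4 erythroid markers. CD3G, LYZ, CD163, MS4A1, PAX5, CDX2 and HBB were among those at 0.

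By cell, 8.42% of IDO1 positive and 4.38% of IDO1 0 cells held 2 or more endothelial UMIs, and 16.4% and 10.8% held 2 or more of macrophages and dendritic cells. At 1000 UMIs per cell these shares were 1.34% and 1.61%, and 4.01% and 3.26%. Without the 3296 stromal cells that held 2 or more UMIs of endothelial, T and NK, macrophage and dendritic or B and plasma markers, 260 IDO1 positive cells remained, IDO1 was in 9.10% of stroma, and the interferon gamma induced list kept a median of 0.80. No doublet caller was run, and 8 IDO1 positive cells (1.07%) and 12 IDO1 0 cells (0.222%) held 8000 UMIs or more. Barcodes of 20 IDO1 positive cells (2.67%) were also kept cells of another library, beside 159 IDO1 0 cells (2.94%). All 748 barcodes, and those of IDO1 0 stroma, stood among the barcodes deposited for the day 9 embryo. That list holds 657829 barcodes, of which 7001 were kept cells, and is far longer than the other 3, so a match to it does not show a shared cell.

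Cells on either side of the gate's edge are given without a test. Just inside, at a stromal sum of 20000 to 25000 CPM, 14 of 206 cells held IDO1 (6.80%), and just outside, at 15000 to 20000, 8 of 153 (5.23%). GBP1 was at 2062 and 1620 CPM in those 14 and 8 cells. In all, 102 kept cells of the library held IDO1 outside the stromal gate, with GBP1 at 1700 CPM.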

How the data were processed

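The deposited values were counts of UMIs per gene and barcode. Per the submitters' processing notes, the authors used Cell Ranger 6.1.2 and the build Sscrofa11.1. Their choice of barcodes is not given in the sources. Kept cells of the day 9 and day 12 endometrium numbered 7984 and 8962, with 26070993 and 25457541 UMIs and medians of 2639 and 2233. KRT19, which the rule names, was not matched among symbols, so 5 of its 6 keratin and junction genes were used. Of 21280 genes, 14811 carried a symbol in the files and 694 more came from a reference table.

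Counts were summed over the cells of a group and scaled to CPM, computed here with Python 3.11.15, numpy 2.4.6, scipy 1.17.1 and pandas 2.3.3. Ratios carry exact binomial and levels exact Poisson 95% intervals, for counting error only. UMIs after PCR count molecules, but cells of 1 library are no replicates, so no test was run. Genes entered counts at 20 CPM and lists at 5 CPM in either group, and 25 lists matched 400 of 454 genes. Ratios and their intervals were also tried on simulated counts that held counting error only. That trial cannot show how the intervals hold where a few cells carry most UMIs of a gene. Weighting to depth used 6 bands of UMIs per cell, and thinning drew 1000 UMIs from each cell once.

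Named genes are the 12 highest and 12 lowest ratios at 50 CPM or more, up to 4 genes per list at 20 CPM or more, the genes of tryptophan degradation and interferon gamma signalling, the genes of the rule, GBP1, SERPINA3-2, IGFBP2, MGP and PENK, and the 5 highest and 5 lowest against day 9, without mitochondrial, ribosomal protein and haemoglobin genes. This rule names 1 gene that is not reported here. The cells and lists were chosen with earlier results of these data known. No cells were clustered, and promoter motifs were not analysed here.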

Additional observations from a re-analysis of the deposited data

How the results depend on the processing

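Of 15 alternatives, that without the 5 highest cells of each gene gave values of single genes only. Over the others, median log2 ratios of the interferon gamma induced (0.78 to 1.02), class I (0.64 to 0.77) and type I lists (0.21 to 0.41) kept their direction. The share of day 12 stroma with IDO1 was 5.91% at 2 or more UMIs, 16.3% in cells of 2000 UMIs or more, 6.68% with cells thinned and 9.10% without cells of 2 or more other marker UMIs, against 12.2%. Genes 2-fold higher numbered 59, 73 and 54 under 2 or more UMIs, thinning and the marker filter, and 83 with no filter on level, against 33. Genes 2-fold lower numbered 121, 213 and 155 in the first 3 of these, 352 with no filter on level, 29 with 5 CPM added and 20 at 50 CPM or more, against 47. Fewer UMIs or cells stand behind each gene under the first 3, and more low genes enter with no filter on level. Levels also differed by the number of IDO1 UMIs. In cells with 1, 2 and 3 or more, GBP1 was at 1313, 1544 and 2200 CPM and CPE at 79.1, 37.6 and 35.0 CPM. The causes of the changed counts were not tested.

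The median of the stromal marker list went from −0.07 to 0.0032 with scaling by the median of ratios. CXCL11 went from 3.91 to −0.34 at a stromal sum of 40000 or more and to −1.06 without its 5 highest cells, an alternative chosen after seeing the data. Of 34 named genes past 2-fold, apart from IDO1, 27 stayed so with depth weighted (not EDIL3, ID1, NT5DC2, NTNG1, PSMB9, SLA-DMB and SLA-DQB1), 25 with cells thinned and 28 without cells of other markers.

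No paired analysis was possible because each group is 1 library and the labels carry no replicate numbers. With 1 library a day, the spread between animals is unknown.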
